A study of Mus musculus with 7 samples.

Results

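The collagen chains described here are the 29 genes whose symbol has the form Col, number, a, number, without Col17a1, the transmembrane collagen of hemidesmosomes. They are 29 of 13047 distinct symbols, on 29 of the 13167 transcripts in the table, and none occurred more than 1 time. By the way their triple helices assemble, 8 are fibrillar chains, 5 are type IV chains of the basement membrane, 4 are FACIT chains (fibril-associated collagens with interrupted triple helices), 5 are type VI chains, and 7 belong to smaller classes. The counts are ribosome footprints, pieces of mRNA covered by a ribosome, so a coding count measures how many ribosomes sat on a coding region.

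Collagens are trimers of chains wound into a triple helix. Types I, III and V assemble into the banded fibrils of the dermis, which fibroblasts make, and FACIT chains sit on the surface of those fibrils. Type IV chains form the network of basement membranes, type VI forms beaded microfilaments around cells, and type VII forms the anchoring fibrils that hold the epidermis to the dermis. Keratinocytes are a known source of type VII and of the type IV chains Col4a5 and Col4a6.

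Ribosome profiling libraries came from primary mouse epidermis, 2 with a transgenic knockout of Pelo (KO) and 2 wild type (WT), all after RiboZero-Gold depletion of ribosomal RNA. Pelo encodes Pelota, a factor that rescues stalled ribosomes; the labels give no strain, age, driver of the deletion or deleted exon. RNA-seq of this tissue (2 KO, 1 WT) was not analysed here. A change in footprints can therefore come from mRNA level, from ribosomes per mRNA or from the mix of cells, which cannot be told apart; nor can fewer cells of a type be told from less RNA per cell.

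Coding footprints numbered 4221675 to 5282276 per library, and the Pelo transcript 24 and 21 in the KO libraries against 101 and 61 in WT (log2 change −1.65, SE 0.245, edgeR adjusted p = 0.000807). A count was listed only above 0.01 footprints per nt of coding sequence, so an unlisted count lies anywhere from 0 to that limit. The labels do not say whether replicates were separate animals, so the p-values speak of the spread among these libraries alone. Although the label is epidermis, markers of dermal cells were present: 12 fibroblast genes that are not collagens made up 0.779% and 0.933% of coding footprints in WT and 0.462% and 0.4996% in KO. Of these 12, 5 were lower in KO and 7 did not pass the test, with a median log2 change of −0.34. The 7 suprabasal keratinocyte markers held 2.04% and 1.81% in WT and 6.03% and 5.62% in KO, and 6 of them were higher. Of all transcripts tested, 19.1% were lower and 19.9% higher, with a median log2 change of −0.02. Whether these cell-type differences bear on the collagen results was not tested.

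Taken as a whole, collagen chains held 4.27% and 4.81% of all coding footprints in the KO libraries and 8.43% and 12.6% in the WT libraries, or 4.54 ± 0.378% against 10.5 ± 2.91% (mean ± SD, n = 2 per genotype). Nearly all of this was type I and type III collagen: Col1a1, Col1a2 and Col3a1 made up 80.7% and 82.3% of the collagen footprints in KO and 89.9% and 92.1% in WT. The genotypes did not overlap in either measure, and the WT libraries differed more from each other than the KO libraries did.

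The 4 main classes did not move together. Fibrillar chains held 7.78% and 11.8% of coding footprints in WT but 3.61% and 4.12% in KO, a 2.53-fold difference of the means. Basement membrane chains stood at 0.134% and 0.149% in WT and at 0.0718% and 0.0786% in KO, 1.88-fold apart. FACIT chains held nearly the same share, 0.0628% and 0.0696% in WT and 0.0664% and 0.0648% in KO, and their genotypes overlapped. Type VI chains were the class with a larger share in KO, at 0.434% and 0.433% against 0.335% and 0.388%, a 1.199-fold difference. Without Col6a3 the type VI genotypes overlapped, at 0.211% and 0.217% in KO against 0.187% and 0.221% in WT. Counting intervals (Wilson, 95%) around these shares were narrow, at most ± 0.0308 percentage points, and cover counting error only. These shares are descriptions without a test, because the chains were chosen with results of these data known. They are taken of each library's total. With counts scaled to library totals alone, the median log2 change (KO over WT) of all transcripts tested was −0.20.

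**Figure D1:**
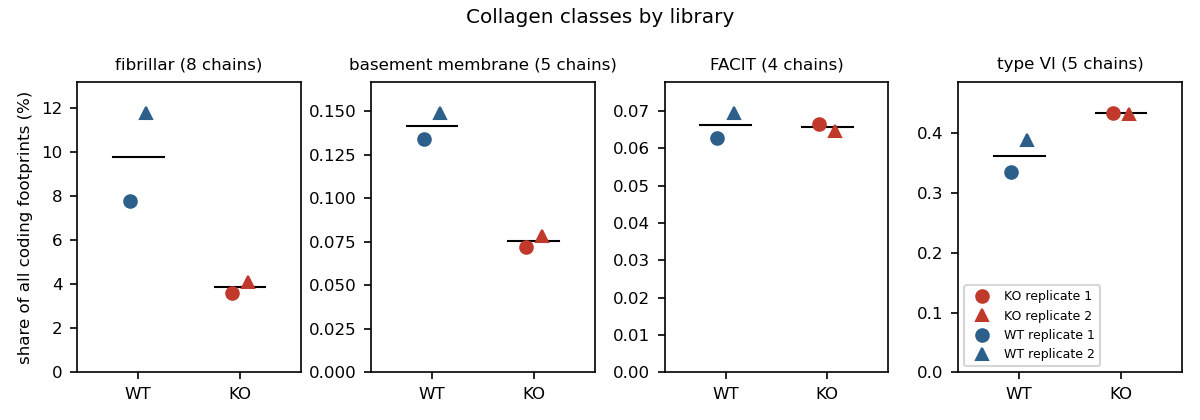
Share of all coding footprints (%, axis from 0) held by each collagen class in each library; each point is 1 library and the line is the mean of 2. Fibrillar and basement membrane chains are lower in both KO libraries, FACIT chains overlap at 0.0628% to 0.0696%, and type VI chains are higher in KO at 0.434% and 0.433%.

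Of the 29 chains, 20 were listed in all 4 libraries and passed the count filter, and in an edgeR quasi-likelihood fit over 10953 transcripts 8 of the 20 were lower in KO, 5 were higher and 7 were not called at an adjusted p of 0.05. Across all transcripts 39% were called, 19.1% lower and 19.9% higher. The median log2 change was −0.32 over the 20 chains and −0.02 over all transcripts. The genotypes did not overlap for 17 of the 20 chains, against 71.9% of all transcripts. By class, 4 of 6 tested fibrillar chains and 3 of 3 basement membrane chains were lower, while 1 of 3 FACIT and 1 of 3 type VI chains were higher and the other 2 of each were not called.

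**Figure D2:**
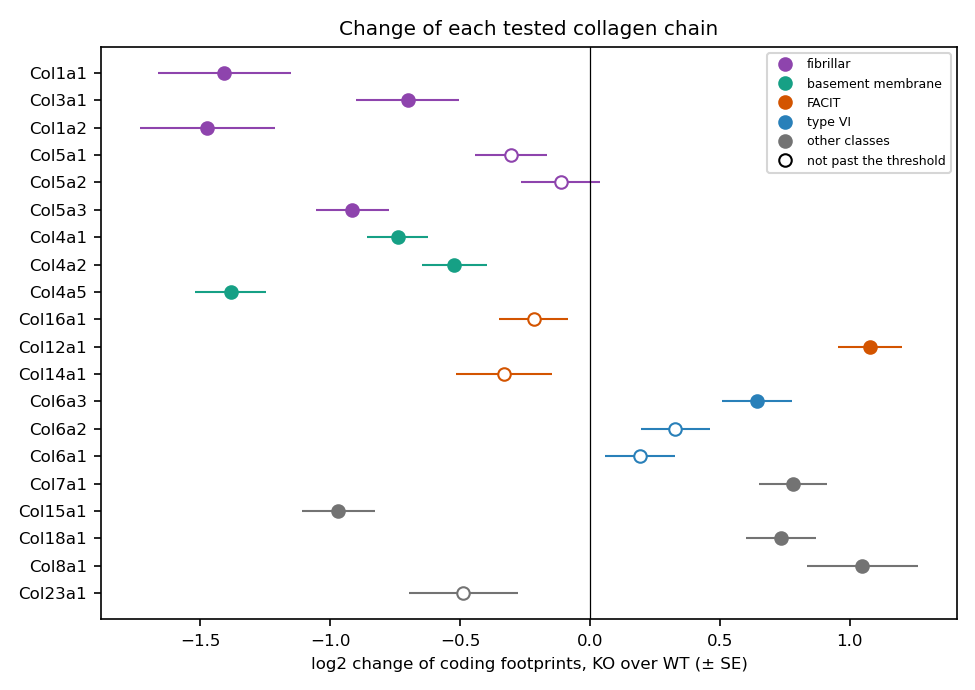
Log2 change of coding footprints (KO over WT, edgeR, bars are SE) for the 20 tested collagen chains, coloured by class; filled points passed an adjusted p of 0.05. Changes run from −1.47 for Col1a2 to 1.08 for Col12a1.

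Type I collagen, the main protein of dermal fibrils, showed the largest falls among the 20 tested chains. Col1a1, its α1 chain (transcript uc007kzn.1), had 68499 and 75428 coding footprints in KO replicates 1 and 2 against 185880 and 233336 in WT replicates 1 and 2. Both WT libraries were high, and WT replicate 2 was 1.65 times WT replicate 1 in normalised counts. The level was 16323 ± 1713 CPM (counts scaled to library size with TMM, a correction for library composition) in KO against 43275 ± 14960 in WT, 2.65-fold lower (log2 change −1.41, SE 0.255, adjusted p = 0.00241).

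Col1a2, the α2 chain of the same trimer, had 38750 and 42493 footprints in the KO libraries against 105626 and 140994 in WT. It was 2.77-fold lower (log2 change −1.47, SE 0.259, adjusted p = 0.00207), and WT replicate 2 was 1.75 times WT replicate 1. The ratio of footprint density, in footprints per nt, of Col1a1 to Col1a2 stayed close to constant while the levels moved: 1.67 and 1.67 in KO, 1.66 and 1.56 in WT. Type I collagen is known to contain 2 α1 chains for 1 α2 chain.

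Col3a1, whose homotrimer type III collagen shares fibrils with type I, fell less. It had 62481 and 60866 footprints in the KO libraries against 108995 and 113778 in WT, a 1.63-fold fall (log2 change −0.70, SE 0.198, adjusted p = 0.0203). The KO libraries lay below both WT libraries, but the call was lost without KO replicate 1 (−0.68, adjusted p = 0.090) and without KO replicate 2 (−0.72, adjusted p = 0.096). Its density relative to Col1a1 was 0.905 and 0.801 in KO and 0.582 and 0.484 in WT, so the balance of type III to type I footprints was 1.601 times higher in KO.

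The type V chains, which are built into type I fibrils and limit their diameter, split. Col5a1 had 3642 and 3749 footprints in the KO libraries against 5212 and 4983 in WT, with a log2 change of −0.30 (SE 0.138, adjusted p = 0.112). Col5a2 had 3762 and 3507 against 4281 and 4446, with a log2 change of −0.11 (SE 0.152, adjusted p = 0.593), and its genotypes overlapped in CPM. Neither passed the test; Col5a1 passed without WT replicate 1 (−0.46, adjusted p = 0.026), and Col5a2 changed sign without WT replicate 2 (0.13, adjusted p = 0.486). Col5a3, the minor type V chain, did fall: 365 and 364 footprints against 785 and 752, 1.88-fold lower (log2 change −0.91, SE 0.139, adjusted p = 0.000936). Relative to Col1a1, the density of Col5a2 was 0.0533 and 0.0451 in KO and 0.0223 and 0.0185 in WT, a 2.41-fold shift in the ratio.

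The 2 other fibrillar chains are known from cartilage and were near the listing limit. Col2a1 was listed in WT, with 88 and 139 footprints, and in neither KO library, where up to 44 would go unlisted, a difference of at least 2.66-fold. Col11a1 had 149 and 85 footprints in KO and 56 in WT replicate 1 and was unlisted in WT replicate 2, where it can reach 53; it was not tested. Of 6 chondrocyte markers, Sox9, which hair follicle cells also express, was the 1 in the table, with a log2 change of 0.01.

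**Figure D3:**
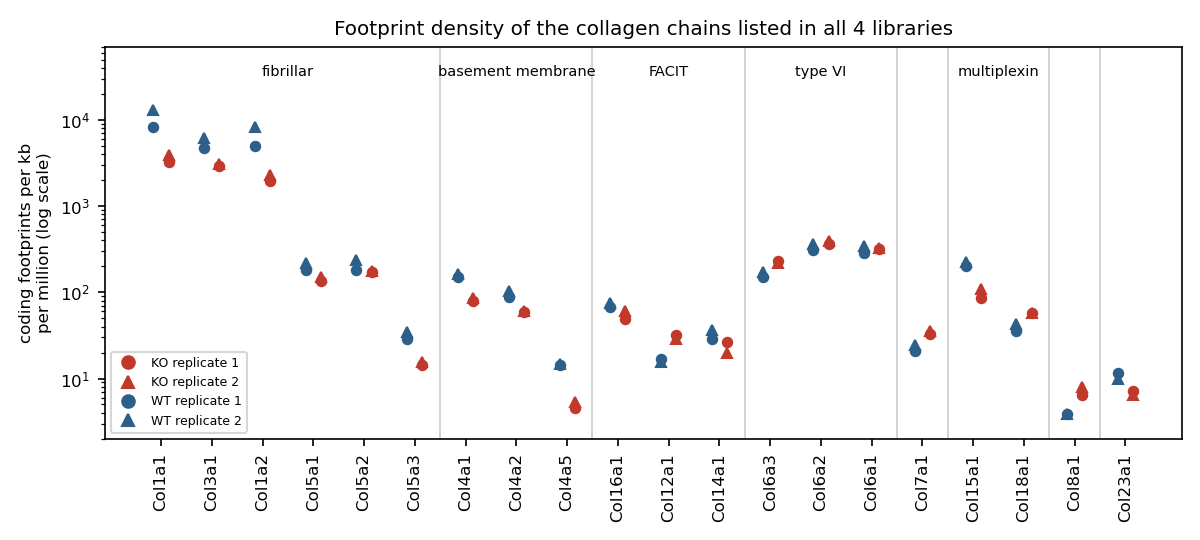
Coding footprints per kb of coding sequence, scaled to each library's total (RPKM, log scale), in each of the 4 libraries for the 20 collagen chains listed in all of them, ordered by class and, within a class, by total footprints. Col1a1, Col1a2 and Col3a1 stand above every other chain in all 4 libraries, and Col6a3 moves from rank 9 in WT to rank 6 in KO.

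Per length of coding sequence, Col1a1 carried most footprints in both genotypes, at 10514 ± 3301 RPKM (footprints per kb, scaled to the library's total) in WT and 3555 ± 456 in KO. Col1a2 and Col3a1 followed, in that order in WT (6577 ± 2335 and 5488 ± 1030) and in the reverse order in KO (2127 ± 267 and 3016 ± 127). Their spreads between libraries overlapped in WT. Within each WT library Col1a2 was the higher, at 4926 against 4760 in replicate 1 and 8228 against 6217 in replicate 2. Col6a2 and Col6a1 came next in both genotypes, at 339 ± 38.7 and 314 ± 39.0 in WT. Their spreads between libraries also overlapped in WT, while Col6a2 lay above Col6a1 within each library. Col15a1 dropped from rank 6 in WT (214 ± 16.1) to rank 9 in KO (97.6 ± 16.8), and Col6a3 rose from rank 9 (161 ± 14.3) to rank 6 (224 ± 5.77).

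All 3 tested type IV chains fell. Col4a1 and Col4a2, whose α1 and α2 chains form the type IV network of nearly all basement membranes, are genomic neighbours. Col4a1 had 1956 and 1915 footprints in the KO libraries against 3893 and 3379 in WT, 1.67-fold lower (log2 change −0.74, SE 0.118, adjusted p = 0.00121). Col4a2 had 1470 and 1380 against 2374 and 2204, 1.44-fold lower (−0.52, SE 0.127, adjusted p = 0.0102), a call lost without WT replicate 2 (−0.37, adjusted p = 0.059). In both genes every KO library lay below every WT library.

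Col4a5, typical of epithelial basement membranes, had 112 and 122 footprints in the KO libraries against 380 and 310 in WT, 2.61-fold lower (log2 change −1.38, SE 0.137, adjusted p = 7.25e-05). Its density relative to Col4a1 was 0.0567 and 0.0631 in KO and 0.0967 and 0.0909 in WT, without overlap. Col4a6, its neighbour on the X chromosome and partner in the same trimer, had 309 and 240 in WT and 62 in KO replicate 2, and was unlisted in KO replicate 1, where it can reach 50. Col4a3, a chain known from the kidney, had 120 and 168 in WT and 77 in KO replicate 2, and was unlisted in KO replicate 1, where it can reach 49. Neither was tested, and both stood lower in each KO library than in each WT library.

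Other collagens of the dermal and epidermal basement membrane zone went in opposite directions. Col7a1, the anchoring fibril chain, had 1417 and 1426 footprints in the KO libraries against 956 and 896 in WT, 1.72-fold higher (log2 change 0.78, SE 0.130, adjusted p = 0.0015). Its density relative to Col4a1 was 0.409 and 0.420 in KO and 0.139 and 0.150 in WT, a 2.88-fold shift. Col18a1, the heparan sulfate collagen whose end fragment is endostatin, had 1272 and 1190 against 840 and 811, 1.67-fold higher (0.74, SE 0.134, adjusted p = 0.00246).

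Col15a1, the closest relative of Col18a1, did the reverse. It had 1709 and 2002 footprints in the KO libraries against 4326 and 3845 in WT, 1.96-fold lower (log2 change −0.97, SE 0.141, adjusted p = 0.000719). The ratio of Col15a1 to Col18a1 density was 1.503 and 1.88 in KO and 5.76 and 5.30 in WT. Type XV collagen is known from basement membranes of vessels, muscle, nerve and fat cells. Of 9 endothelial markers 7 were tested and 7 did not pass, with a median of −0.27. In contrast 5 of 5 tested Schwann cell markers (median −1.28) and 5 of 5 tested adipocyte markers (median −1.26) were lower. Of 8 mural cell markers 4 were lower and 1 higher (median −0.68). Among all transcripts 39% were called, 19.1% lower and 19.9% higher. The part of these cell types in the collagen changes was not tested. Skeletal muscle markers held 0.163% of coding footprints in WT replicate 1 and 0.0396% to 0.0434% in the other libraries, and 1 of 6 could be tested (Acta1, 0.10).

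Of the type VI chains, Col6a3 rose. This chain, the longest of the type VI trimer, had 10987 and 9724 footprints in the KO libraries against 7788 and 7060 in WT, 1.56-fold higher (log2 change 0.64, SE 0.136, adjusted p = 0.00531). Col6a2 had 5515 and 5410 against 5016 and 4712 (0.33, SE 0.134, adjusted p = 0.080), and passed only without WT replicate 2 (0.49, adjusted p = 0.019). Col6a1 had 4678 and 4424 against 4558 and 4346 (0.19, SE 0.135, adjusted p = 0.292). Neither passed, although in CPM both KO libraries lay above both WT libraries for each of these 3 chains.

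The 3 chains form a trimer with 1 copy of each, and Col6a1 and Col6a2 are genomic neighbours. The density ratio of Col6a1 to Col6a2 was 0.856 and 0.825 in KO and 0.917 and 0.931 in WT. That of Col6a3 to Col6a1 was 0.724 and 0.677 in KO and 0.526 and 0.501 in WT, 1.36 times higher in KO. Relative to Col1a1, Col6a3 density was 4.01 times higher in KO. Col6a5 and Col6a6, which can replace Col6a3 in the trimer, had 157 and 121 and 160 and 157 footprints in WT; each was listed only in KO replicate 1, with 125 and 76, and neither was tested.

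FACIT chains showed no common direction. Col12a1, which binds the surface of type I fibrils, had 1448 and 1175 footprints in the KO libraries against 812 and 597 in WT, 2.11-fold higher (log2 change 1.08, SE 0.122, adjusted p = 0.000157). That was the largest rise among the tested chains, and both KO libraries lay far above both WT libraries. Col14a1, its closest relative, had 694 and 475 in KO against 806 and 825 in WT (−0.33, SE 0.184, adjusted p = 0.184) with overlapping CPM; it passed without KO replicate 1 (−0.58, adjusted p = 0.013). The ratio of Col12a1 to Col14a1 density was 1.22 and 1.44 in KO and 0.588 and 0.422 in WT, a 2.63-fold shift. Col16a1 had 1131 and 1278 against 1668 and 1481 (−0.22, SE 0.132, adjusted p = 0.225), also overlapping. Col9a3, a cartilage chain, had 32 and 34 footprints in WT and was unlisted in KO, at least 1.75-fold lower.

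Among the smaller classes, Col8a1, a short chain of vessel walls, was 2.07-fold higher in KO on few footprints, 69 and 79 against 45 and 36 (log2 change 1.05, SE 0.214, adjusted p = 0.00449). Its partner Col8a2 went the other way, with 218 and 232 footprints in WT, 22 in KO replicate 2 and no listed value in KO replicate 1, where it can reach 20; it was not tested. The transmembrane chain Col23a1 had 49 and 40 against 84 and 58 (−0.49, adjusted p = 0.0946). Col28a1, known from Schwann cells, had 75 and 66 in WT and was unlisted in KO, at least 2.13-fold lower.

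Footprints in the 5′ untranslated region (5′ UTR) of the fibrillar chains were more frequent relative to coding footprints in KO. Across all transcripts but the collagen chains there were 15.7 and 18.1 5′ UTR footprints per 1000 coding footprints in the KO libraries and 12.02 and 11.5 in WT. In the 6 fibrillar chains listed in all 4 libraries there were 10.9 and 15.04 in KO and 4.53 and 2.67 in WT, 3.61 times as many. Basement membrane chains were 1.52-fold, FACIT chains 1.795-fold and type VI chains 1.96-fold higher by the same sums, against 1.44-fold for the other transcripts.

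Col1a1 stood out. Its 93 nt of 5′ UTR held 452 and 752 footprints in the KO libraries against 350 and 125 in WT, although its coding region held fewer in KO. That is 6.60 and 9.97 per 1000 coding footprints in the KO libraries and 1.88 and 0.536 in WT, so the genotypes were apart and the WT replicates differed from each other. As a share of 5′ UTR and coding footprints together this was 0.656% (Wilson 95% interval 0.598 to 0.719) and 0.987% (0.919 to 1.06) in KO, and 0.188% (0.169 to 0.209) and 0.0535% (0.0449 to 0.0638) in WT.

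The ratio's change was tested with a genotype by region term and TMM scaling inside each region, so that changes are relative to the typical transcript. Of 1618 transcripts tested, 1.17% were called, 0.494% with a higher and 0.68% with a lower ratio in KO. Of 11 collagen chains tested, Col1a1 was called (log2 change of the ratio 2.22, SE 0.439, adjusted p = 0.0278) and 10 were not. The call was lost without WT replicate 2 (1.39, adjusted p = 0.124), the library with 125 footprints, and the value was 3.13 without WT replicate 1.

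Col1a2 had 14.4 and 19.5 5′ UTR footprints per 1000 coding footprints in the KO libraries against 6.65 and 4.63 in WT, and Col3a1 had 12.6 and 17.4 against 6.25 and 3.81. Neither passed the test relative to other transcripts (0.86 for each, adjusted p = 0.142 and 0.163). Both passed without a count filter (0.97 for each, edgeR adjusted p = 0.0161). They also passed with the coding factors for both regions (1.597 and 1.599, edgeR adjusted p = 0.000166 and 0.000192). Those factors leave in the 1.44-fold rise of the other transcripts, and far more transcripts were called with them. The mRNAs of Col1a1, Col1a2 and Col3a1 are known to share a conserved stem-loop at the start codon that is bound by Larp6. Larp6 itself had 23 and 26 coding footprints in WT, 15 in KO replicate 2 and no listed value in KO replicate 1. The type V chains did not follow as a group: Col5a1 had 22.5 and 30.9 against 13.05 and 12.2 (0.33), and Col5a2 had 16.5 and 13.4 against 13.5 and 12.8 (−0.55). Over the 11 tested chains the median was 0.34, against 0.04 over all transcripts tested, and 9 of the 11 were above 0, against 52.2% of all.

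**Figure D4:**
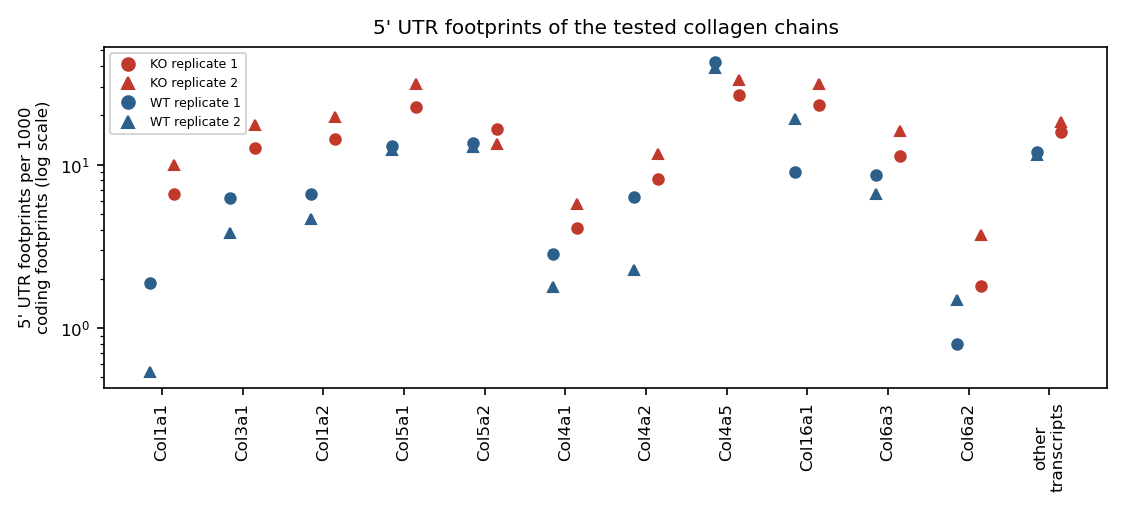
Footprints in the 5′ UTR per 1000 coding footprints (log scale) in each library for the 11 tested collagen chains and for all transcripts but the collagen chains. Col1a1, Col1a2 and Col3a1 are higher in both KO libraries, and Col1a1 ranges from 0.536 in WT replicate 2 to 9.97 in KO replicate 2.

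Footprints beyond the stop codon were rare on collagen mRNAs, at 76 and 75 over the 20 chains in KO and 49 and 75 in WT. Only the 3 most abundant chains could be tested. Col3a1 had 25 and 21 footprints in its 3′ UTR in KO against 11 and 11 in WT, or 0.400 and 0.345 per 1000 coding footprints against 0.101 and 0.0967 (log2 change of the ratio 2.42, SE 0.403, adjusted p = 0.00955). Col1a1 had 20 and 20 against 10 and 29 (2.13, adjusted p = 0.0297), and Col1a2 had 13 and 15 against 17 and 11 (2.09, adjusted p = 0.0304).

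All 3 passed, where 10.8% of 223 transcripts did, 7.17% with a higher and 3.59% with a lower ratio in KO. Of these 3, only Col3a1 had more 3′ UTR footprints in both KO libraries; for Col1a1 and Col1a2 the ratio moved with the coding count. The 3 calls were lost without KO replicate 1 (adjusted p from 0.190 to 0.212) and when both regions were scaled with the coding factors (log2 1.59 to 1.91, adjusted p from 0.058 to 0.093) in edgeR. Col1a2 was lost in 5 of 7 alternatives, also without KO replicate 2 (2.21, adjusted p = 0.0558), without WT replicate 2 (0.97, adjusted p = 0.240) and without a count filter (1.73, adjusted p = 0.336). Col3a1 was also lost without WT replicate 2 (1.76, adjusted p = 0.062), and Col1a1 without a count filter (1.77, adjusted p = 0.0827); without WT replicate 1 Col1a1 kept its call at 1.32.

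The counts of the 8 lists that follow stand against 39% of all transcripts called, 19.1% lower and 19.9% higher. Genes that prepare procollagen in the endoplasmic reticulum were lower or not called, with 1 exception. Of 16 tested genes for modification and folding, 7 were lower, 1 was higher and 8 were not called, with a median log2 change of −0.40. Serpinh1, the collagen-specific chaperone Hsp47, had 2719 and 3217 footprints in the KO libraries against 5826 and 5343 in WT (−0.74, SE 0.148, adjusted p = 0.00391). P4ha2, a catalytic subunit of prolyl 4-hydroxylase, fell by 0.95 on the log2 scale, and the prolyl isomerase Fkbp10 fell by 0.73. P4hb, the subunit that is also protein disulfide isomerase and serves all secretory cells, was the 1 that rose (0.58, adjusted p = 0.00312), with 3994 and 3669 footprints in the KO libraries against 3227 and 2550 in WT.

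Of 8 tested genes for procollagen export, 4 were lower and 4 not called (median −0.40). Creb3l1, a transcription factor known to activate type I collagen genes, fell by 1.13 and Mia2, a cargo receptor family member, by 0.69. Mia3, which encodes the procollagen receptor TANGO1, fell by 0.40 and the coat protein Sec24d by 0.41. Each missed the threshold in 5 of 9 alternatives, among them without KO replicate 1, KO replicate 2 or WT replicate 2. With 1 library left out, Mia3 ran from −0.56 to −0.23 and Sec24d from −0.54 to −0.26.

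Genes for trimming the propeptides off fibrillar procollagens, enzymes and their enhancers, had the lowest median of the 8 lists. Of 5 tested, 4 were lower and Bmp1, the C-proteinase, was not called (−0.35, adjusted p = 0.0912); the median was −1.27. Pcolce2 and Pcolce, enhancers of Bmp1, had 95 and 84 against 350 and 352 footprints (−1.81, adjusted p = 5.24e-05) and 824 and 701 against 2040 and 2063 (−1.27). The N-proteinases Adamts14 (−1.55) and Adamts2 (−0.95) fell with them. Tll1 was listed in WT alone, with 50 and 48, and an unlisted KO count can reach 29.

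Of 5 cross-linking enzymes of the lysyl oxidase family 2 were lower and 3 not called (median −0.27), a share called near the 39% of all transcripts. Loxl2, which acts on type IV collagen among others, fell by 0.95, with 603 and 563 footprints against 1157 and 1331. Lox fell by 0.59, a call lost in 3 of 9 alternatives, and stood at −0.32 without WT replicate 2. Loxl1 stood at 0.01 (edgeR adjusted p = 0.967).

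Of 7 tested receptors for collagen, 3 were lower, 1 was higher and 3 were not called (median −0.41), where 39% of all transcripts were called, 19.1% lower and 19.9% higher. Itga1, the integrin subunit that prefers type IV collagen, had 84 and 109 footprints in the KO libraries against 331 and 301 in WT (−1.54, adjusted p = 0.000168). Itga2, the subunit of the keratinocyte receptor for type I collagen, fell by 0.67 and the epithelial receptor kinase Ddr1 by 0.54. Itga11, a fibroblast integrin subunit for fibrillar collagen, rose 2.14-fold, with 219 and 190 footprints in the KO libraries against 136 and 82 in WT (1.10, SE 0.159, adjusted p = 0.000710).

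Among 12 tested proteases and inhibitors of collagen breakdown, 3 were lower, 2 higher and 7 not called (median −0.32), a share called near the 39% of all transcripts. The inhibitors moved apart: Timp1 had 115 and 95 footprints in the KO libraries against 25 and 23 in WT (2.30, SE 0.223, adjusted p = 6.22e-05), while Timp2 fell by 1.08. The membrane-type proteases moved apart as well, with Mmp16 higher (1.69) and Mmp15 lower (−1.25), while Mmp14 was not called (−0.21, adjusted p = 0.193). The collagenases Mmp8, with 16 and 16, and Mmp13, with 76 and 27, were listed only in KO. For each an unlisted WT count can reach 13, so Mmp8 was near the listing limit.

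Of 14 tested laminins and other partners of type IV collagen in the basement membrane, 6 were lower, 3 higher and 5 not called (median −0.28). Lama3, a laminin chain of the epidermal basement membrane, rose by log2 0.70. Lamc3 (−1.10) and Lamb2 (−0.76) fell. Of 9 tested partners of collagen and elastic fibres, 4 were lower, 2 higher and 3 not called (median −0.15). Tnxb, a regulator of fibril spacing, had 2551 and 2451 footprints in the KO libraries against 7355 and 7843 in WT (−1.45, adjusted p = 0.000149), and Sparc, a collagen-binding glycoprotein, fell by 0.98. Tnc (2.798, adjusted p = 1.43e-05) and Postn (1.32), matrix proteins known from healing wounds, rose; Tnc had 1636 and 1295 footprints in the KO libraries against 214 and 252 in WT.

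**Figure D5:**
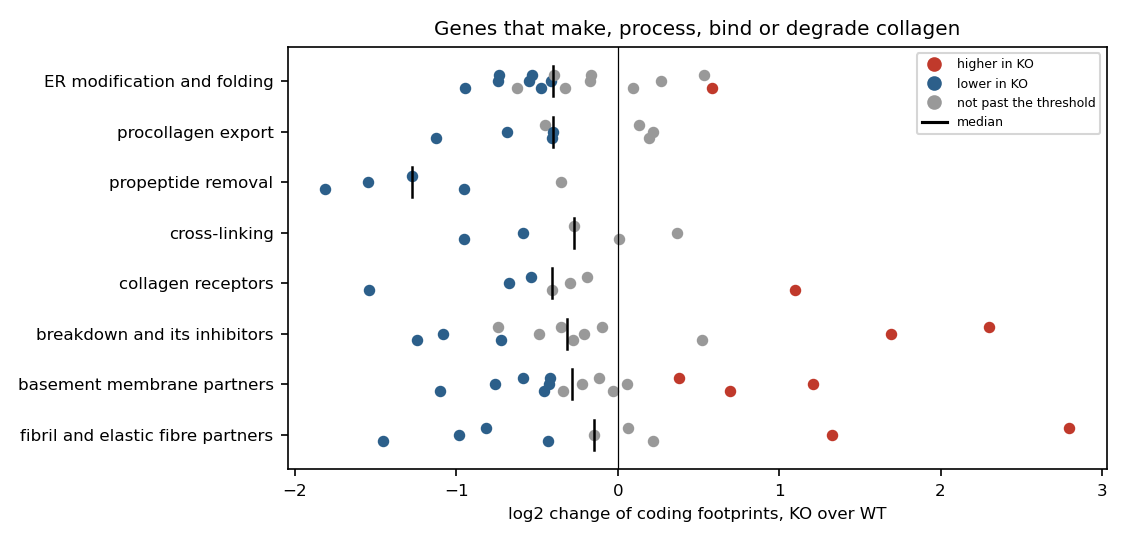
Log2 change of coding footprints (KO over WT) for the tested genes of 8 lists that make, export, trim, cross-link, bind, degrade or accompany collagen; each point is 1 gene, coloured by whether it passed an adjusted p of 0.05, and the black bar is the list's median. Medians lie between −1.27 (propeptide removal) and −0.15, against −0.02 over all transcripts.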

How the data were processed

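The deposited table gives raw footprint counts per mm9 transcript and region, per the file headers. Tools named without a role, per the submitters' processing notes, are TopHat2 2.0.10, Bowtie2 2.2.6 and CASAVA 1.8; the handling of reads shared by genes was not stated there. The headers describe 1 table as 28 to 34 nt footprints and the other as 20 to 22 nt, but they are byte-identical, so the length class is unknown. The 28 further per-library columns were not used.

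Coding counts of transcripts listed in all 4 libraries, reaching 10 counts in 2 or more of them, were scaled by TMM (factors 0.926 to 1.09) and tested with edgeR 4.0.16 in R 4.3.3 (quasi-likelihood, Benjamini-Hochberg over all transcripts). UTR ratios were tested as the genotype by region interaction with library as a factor. The biological coefficient of variation was 11.1%. The median over all transcripts was 90 to 112 coding footprints per library. Most collagen chains had too few 3′ UTR footprints for the ratio test. The fits were tested on simulated data. In coding counts with few changed transcripts, 13.2% of changes of log2 0.5 and 76.9% of log2 1 were recovered. For changes of log2 1 in the ratios, 24.4% (5′ UTR) and 8% (3′ UTR) were recovered. A chain that was not called may therefore still differ. Class membership, gene lists, tests and alternatives were chosen with earlier results of these data known. Values are given for the 4 most abundant chains of each main class and every called chain, and for up to 4 called genes per list with the largest change; any other gene named was picked with its value known. A gene that this rule selects is not reported here. Neighbours were taken from RefSeq (GRCm38.p6), where 29 of 29 symbols matched.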

Additional observations from a re-analysis of the deposited data

How the results depend on the processing

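Coding calls were the most stable. Of the 20 chains, 13 were called with DESeq2, and also 13 without a count filter. With library totals alone 17 were called, 5 higher and 12 lower. When 1 library was left out, every chain called in the main fit kept its sign. With unlisted counts at 0 all 29 chains were tested and 17 were called, 5 higher and 12 lower. The 20 chains kept their calls, so the 4 more calls are among the 9 chains not listed in every library. An unlisted count can lie anywhere up to the listing limit. Setting it to 0 favours a call for such a chain, so these 4 calls decide nothing. Library totals moved the median of all transcripts by −0.18 (log2). Over all transcripts DESeq2 called 1492 higher and 1177 lower, and library totals 1501 and 3023. The main fit called 2184 higher and 2093 lower of 10953. Library totals thus gave more lower calls over all transcripts as well as among the chains. Col5a2 ranged from −0.32 to 0.13 with 1 library left out, above 0 without WT replicate 2.

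UTR calls depended on the settings; the cause was not tested. With 1 library left out, the 5′ UTR ratio change of Col1a1 ran from 1.39 to 3.13. Without a count filter 3 chains were called in the 5′ UTR comparison (Col1a1, Col1a2 and Col3a1). With the coding factors 6 were called (these 3, Col5a1, Col16a1 and Col6a3). In that setting 494 transcripts were called in all, against 19 of 1618 in the main fit. Signs changed for Col5a2 with the coding factors (0.18), and with 1 library left out for Col4a2 (−0.0828 to 1.32), Col16a1 (−0.27 to 0.87) and Col6a3 (−0.0622 to 0.34). The 3′ UTR comparison gave 0 to 3 calls with 1 library left out, 1 without a count filter and 0 with the coding factors.

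As log2 KO over WT, class shares of all collagen footprints were −0.13 (fibrillar), 0.26 (basement membrane, reversed), 1.16 (FACIT) and 1.44 (type VI). As a share of all coding footprints FACIT stood at −0.01 with overlapping genotypes, so it had no direction to reverse. Fibrillar chains held 84.5% to 94.0% of collagen footprints, so a class that fell less than they did gains in this share. As shares of all coding footprints, FACIT stood at 0.28 and type VI at 0.0693 without the most abundant chain of each. In that setting the type VI genotypes overlapped. With types VII, XV and XVIII the basement membrane class stood at −0.63.

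Same-numbered libraries did not deviate together (r = −0.005 across transcripts). The labels do not say whether they share more than a number, and a correlation over all transcripts cannot settle it. With the replicate block, 13 collagen chains were called in coding counts, 3 in the 3′ UTR ratio and 0 in the 5′ UTR ratio (Col1a1 2.25, edgeR adjusted p = 0.209).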

Other observations

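Among 10 collagen genes that lie next to another collagen gene, 3 pairs had both members tested. Col4a1 and Col4a2 both fell, neither Col6a1 nor Col6a2 was called, and Col3a1 fell (−0.70) while its neighbour Col5a2 did not pass (−0.11).

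Fibroblast markers spread as widely as the collagens they accompany. Clec3b, a plasminogen-binding secreted protein, had 458 and 567 footprints in the KO libraries against 2477 and 2160 in WT (log2 change −2.004), and the proteoglycan Dcn fell by 0.85. Thy1 (−0.04), Fbln1 (−0.02), Pdgfra (−0.14) and Twist2 (0.25) were not called. Of 7 basal keratinocyte markers, 2 were higher, 2 lower and 3 not called, with a median of 0.10. Over all transcripts 19.9% were higher and 19.1% lower.

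Fbn2, a fibrillin of developing elastic fibres, had 402 and 346 footprints in KO and was unlisted in WT, whereas its relative Fbn1 fell by 0.81.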
